A study of Arabidopsis thaliana with 10 samples.

Results

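AT2G20870, AT3G09540, AT5G33370, RXF26 (AT1G58430) and AT3G28500 are 5 genes of Arabidopsis thaliana whose listed signal in leaves was above wild type in the flu mutant and also in the flu line that lacks both EXECUTER proteins, RXF26 being too dim in wild type and flu for that difference to be measured. They were chosen by their signals in wild type, flu and ex1/ex2/flu, because the signal of ex1/ex2/flu stood above wild type at least as far as that of flu. The values of these 3 genotypes are therefore given below as a description, and where counts of calls among them are printed they only restate the choice. They are 5 of the 13286 genes that had a probe set assigned to a single locus. The arrays compared rosette leaves of 5 genotypes in the Columbia (Col-0) background, with 2 arrays of each. They were wild type, the mutant flu, flu combined with 1 insertion (ex1/flu or ex2/flu), and flu combined with both (ex1/ex2/flu). Every array held RNA pooled from 5 mature plants. Plants grew on soil under unbroken light (100 µmol m-2 s-1) and, once they started to bolt, were put in the dark for 8 h and collected 30 min after the light came back. All genotypes went through this dark-to-light step, so a leaf without it is not among the samples. The flu allele came from a Landsberg erecta mutant and had been backcrossed 5 times to Columbia, and how much Landsberg sequence around FLU is left in the 4 flu lines was not tested. The EX1 and EX2 alleles were T-DNA insertions, and no group carried them without flu.

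FLU is a plastid protein that holds back chlorophyll precursor synthesis in the dark. Without it protochlorophyllide builds up, and this pigment passes its excitation to oxygen when light returns, which gives singlet oxygen inside the plastid. EXECUTER1 and EXECUTER2 are plastid proteins required for most of the change in nuclear gene expression that follows. The 5 genes fall into 3 kinds by their families. AT2G20870 (annotated as a putative cell wall protein) and AT3G09540 (a pectate lyase family member) belong with the cell wall, the latter family cleaving pectin. AT5G33370 and RXF26 encode GDSL-type lipases, esterases named after a sequence motif, and AT5G33370 is known as CUTIN SYNTHASE 2, which takes part in building the cuticle. AT3G28500 encodes a P2 protein of the stalk of the large ribosomal subunit, the flexible arm that recruits translation factors.

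The EX1 probe set bears on the labels with ex1 and not on those with ex2. Relative to wild type it differed by -1.50 ± 0.17 (SE, n = 2) in ex1/flu and by -1.75 ± 0.17 (SE, n = 2) in ex1/ex2/flu on the log2 scale, and by -0.20 and 0.17 in ex2/flu and flu. STZ, a zinc finger gene that responds to stress, served as a reference for the EXECUTER-dependent response. Its log2 difference from wild type was 2.90 in flu, 3.28 in ex2/flu, 1.63 in ex1/flu and 0.85 in ex1/ex2/flu, each ± 0.15 (SE, n = 2). Arrays of a genotype correlated at 0.973 to 0.985 across probe sets. Signals are deposited intensities on a linear scale, without detection calls. A probe set was tested where it reached the 40th percentile of its array, a signal of 85.5 to 92.6, on at least 2 of the 10 arrays, and all 5 genes did so. RXF26 exceeded that level on 3 arrays and the other 4 genes on all 10.

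The putative cell wall gene AT2G20870 had signals of 225 and 156 in wild type. The signals were 726 and 601 in flu and 917 and 1073 in ex1/ex2/flu. Both wild-type arrays lay far below all others, and the arrays of ex1/ex2/flu lay above those of flu. In the lines with a single EXECUTER insertion the signals were 917 and 1026 in ex1/flu and 499 and 693 in ex2/flu. The arrays of ex2/flu overlapped those of flu, and the arrays of ex1/flu overlapped those of ex1/ex2/flu. The genotypes thus ordered as wild type, ex2/flu, flu, ex1/flu and ex1/ex2/flu. In bulk leaves a difference of this kind cannot be told apart from a change in the number of cells that hold the transcript.

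**Figure D1:**
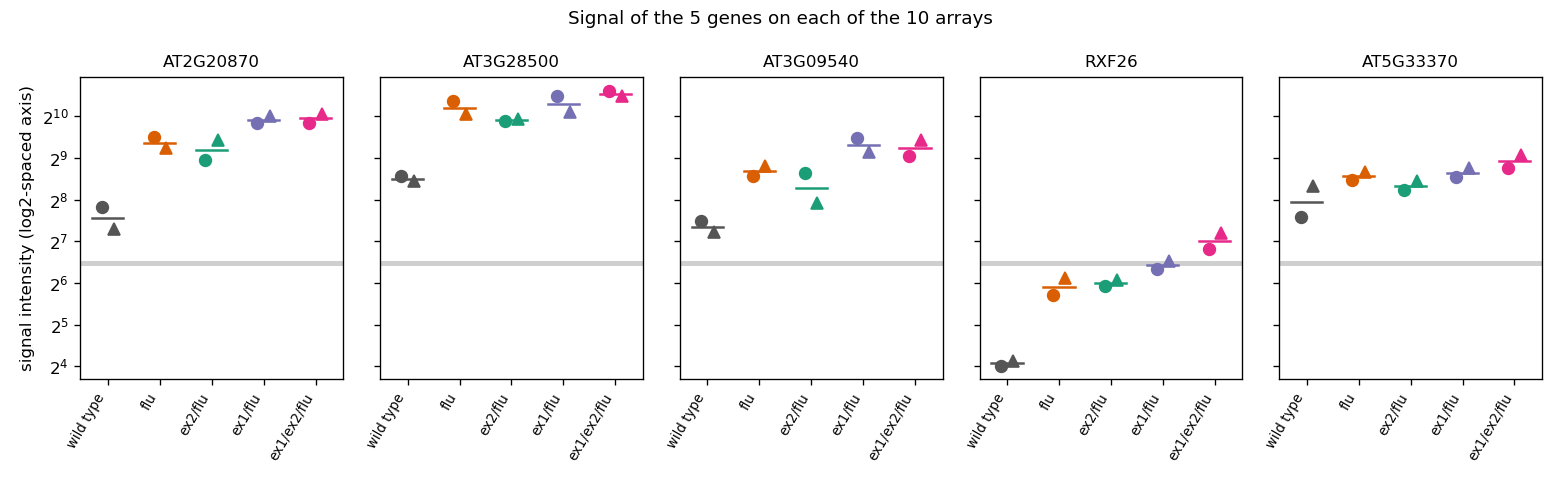
Signal of the 5 genes on each array (vertical axis: intensity, log2-spaced; circles are replicate 1, triangles replicate 2 and bars the genotype means), with a grey band over the 40th percentiles of the arrays, 85.5 to 92.6. The wild-type mean is lowest in every panel, and RXF26 exceeded its array's percentile on 3 of the 10 arrays.

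The pectate lyase gene AT3G09540 had signals of 179 and 148 in wild type and of 379 and 452 in flu. In ex1/ex2/flu they were 532 and 694, above both flu arrays. The signals of ex1/flu were 710 and 568, and those of ex2/flu were 402 and 240. The lower ex2/flu array lay nearer to wild type than to the ex1/flu arrays. AT3G09540 was the single gene of the 5 whose highest mean was in ex1/flu, although its arrays overlapped those of ex1/ex2/flu. The arrays of ex2/flu and flu overlapped too.

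The GDSL lipase gene AT5G33370 (CUTIN SYNTHASE 2) had signals of 192 and 319 in wild type, and no other genotype had arrays so far apart for this gene. The signals were 356 and 407 in flu and 437 and 537 in ex1/ex2/flu. In ex1/flu they were 372 and 434, and in ex2/flu 301 and 347. The lower ex2/flu array lay below the higher wild-type array, and the arrays of flu and ex1/flu overlapped. Of the 5 genes, this was the one whose wild-type arrays were not both below all 8 arrays of the flu lines. Among all tested probe sets, 3.87% had both wild-type arrays below the other 8.

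The other GDSL lipase gene, RXF26, was dim. Its signals were 16 and 18 in wild type, 52 and 69 in flu and 60 and 67 in ex2/flu, all under the 40th percentile of their arrays. Signals of 81 and 92 in ex1/flu and of 113 and 147 in ex1/ex2/flu brought it over that level, on 1 array and on both. It passed the filter through the genotypes in which it was high, so only bounds can be given against the other ones. Signal in ex1/ex2/flu was at least 1.42-fold that of wild type and at least 1.46-fold that of flu, taking the percentile of each array as the level of the dim genotype. Whether flu itself stood above wild type for RXF26 could not be measured, because both genotypes were not above the level.

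The ribosomal stalk gene AT3G28500 had signals of 378 and 350 in wild type, the closest pair of wild-type arrays among the 4 brighter genes. Its signals were 1317 and 1065 in flu and 1565 and 1432 in ex1/ex2/flu. They were 1446 and 1100 in ex1/flu and 953 and 987 in ex2/flu. Wild type was well apart from every flu line, and ex2/flu lay below flu, ex1/flu and ex1/ex2/flu with no overlap. The arrays of flu and ex1/flu overlapped, and so did those of ex1/flu and ex1/ex2/flu.

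The values that chose the genes can be put as log2 differences from the fit. AT2G20870 differed from wild type by 1.82 ± 0.21 (SE, n = 2) in flu and by 2.40 ± 0.21 in ex1/ex2/flu. AT3G28500 differed by 1.70 ± 0.17 (SE, n = 2) and 2.04 ± 0.17, and AT3G09540 by 1.35 ± 0.23 and 1.90 ± 0.23. These 3 genes were thus above wild type by more than the spread between arrays in either line. AT5G33370 differed by 0.62 ± 0.22 (SE, n = 2) in flu and 0.97 ± 0.22 in ex1/ex2/flu, and these values followed the wild-type array used. They were 0.26 and 0.60 without the lower wild-type array, and 0.99 and 1.34 without the higher one. These values restate the choice of the genes and do not test it. For RXF26 the difference between flu and wild type could not be measured, because both were under the level. In flu 4 of the 5 genes and 2.83% of all tested probe sets were called higher than wild type (limma, adjusted p under 0.05), and in ex1/ex2/flu all 5 and 0.388%. AT5G33370 was the gene not called in flu, and RXF26 was called from dim values. These counts repeat how the genes were chosen.

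The mean signal of ex1/ex2/flu was above that of flu in all 5 genes, with no overlap of arrays. Among all tested probe sets, 30.2% had both ex1/ex2/flu arrays above both flu arrays. The log2 difference between ex1/ex2/flu and flu was 0.59 (95% interval 0.14 to 1.03) for AT2G20870 and 0.55 (95% interval 0.06 to 1.05) for AT3G09540. It was 0.34 (95% interval -0.02 to 0.70) for AT3G28500 and 0.35 (95% interval -0.12 to 0.82) for AT5G33370. These intervals describe values that chose the genes and test nothing. STZ differed the other way between the same lines, with a difference of -2.05 ± 0.15 (SE, n = 2). Put as a share of the flu difference, ex1/ex2/flu kept 120% for AT3G28500, 132% for AT2G20870, 141% for AT3G09540 and 156% for AT5G33370. The share of AT5G33370 is unsteady, because its flu difference of 0.62 ran from 0.26 to 0.99 when single arrays were left out.

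**Figure D2:**
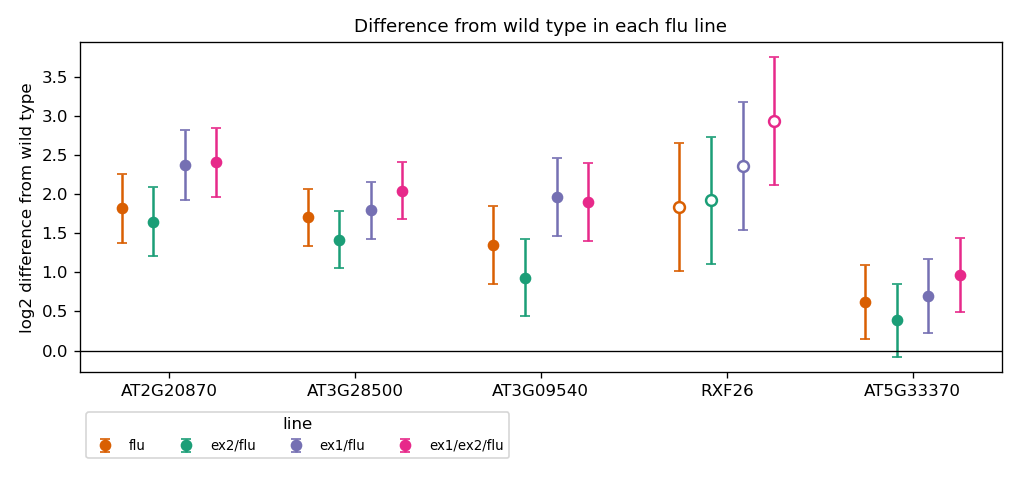
Log2 difference from wild type of the 5 genes in each of the 4 flu lines (vertical axis; points with 95% intervals from the fit, n = 2 arrays per genotype, open points for RXF26 because wild type was under the 40th percentile on both arrays). The ex1/ex2/flu point is above the flu point for all 5 genes, and the ex2/flu interval of AT5G33370 includes 0.

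The same conditions can be counted over the whole table. Of 408 probe sets called higher in flu, 36 were also called higher in ex1/ex2/flu. In 24 of the 36 the mean of ex1/ex2/flu was below that of flu, and in 12 it was at or above it. AT2G20870, AT3G28500, AT3G09540 and RXF26 were among the 12, and 8 of the 12 had a single locus. Without asking for a call in flu, 32 probe sets were called higher in ex1/ex2/flu with a mean at or above flu, 14 of them with a single locus, which include the 5 genes. Of the other 9 loci, ex1/flu had 3 called higher than wild type, ex2/flu had 2, and 0 were called in both.

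The lines ex1/flu and ex2/flu were not used to choose the genes, although they were compared with the same wild-type arrays. Low values on those wild-type arrays were part of the choice and also favour a call here. The comparisons with wild type are therefore not independent of the choice. AT2G20870, AT3G28500 and AT3G09540 rose in both ex1/flu and ex2/flu, and AT5G33370 did not pass the test in either. RXF26 was called in both, but it entered the test through the genotypes in which it was high and lay under the level in wild type and ex2/flu, so its calls are given without weight. In ex1/flu 4 of the 5 genes were called higher than wild type, against 0.72% of all tested probe sets. In ex2/flu 4 of 5 were called higher, against 2.75%. Either count is 3 without RXF26. Both arrays stood above both wild-type arrays for 5 of 5 genes in ex1/flu, against 16.3% of the probe sets, and for 4 of 5 in ex2/flu, against 18.6%. RXF26 is in both of these counts too, and for the same reason it adds no weight to them. The same 4 genes were called higher than wild type in all 4 flu lines, as were 0.208% of the probe sets, but this count includes the lines flu and ex1/ex2/flu that chose the genes and nothing is read from it.

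In ex1/flu, AT2G20870 was 5.17-fold higher than wild type, a log2 difference of 2.37 ± 0.21 (SE, n = 2, limma adjusted p = 1.07e-05). AT3G28500 was 3.47-fold higher, a difference of 1.79 ± 0.17 (SE, n = 2, limma adjusted p = 2.51e-05). AT3G09540 was 3.90-fold higher, a difference of 1.96 ± 0.23 (SE, n = 2, limma adjusted p = 0.00019). All 3 differences were several times their standard error. RXF26 had a limma adjusted p of 0.00353, but no fold is given because wild type and the mean of ex1/flu were under the level. AT5G33370 differed by 0.70 (95% interval 0.23 to 1.17, limma adjusted p = 0.181). The RXF26 call was lost when only the arrays of ex1/flu and wild type were fitted (limma adjusted p = 0.106, range 0.000346 to 0.106 over all alternatives). The number of calls over all probe sets in ex1/flu, 228 in either direction (1.58%), fell to 99 without the first wild-type array and to 97 without the second, while 4 of the 5 genes were called each time.

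In ex2/flu, AT2G20870 was 3.14-fold higher than wild type, a log2 difference of 1.65 ± 0.21 (SE, n = 2, limma adjusted p = 8.41e-05). AT3G28500 was 2.67-fold higher, a difference of 1.42 ± 0.17 (SE, n = 2, limma adjusted p = 5.31e-05). Both genes kept these calls under every alternative that was run. AT3G09540 was 1.91-fold higher, a difference of 0.93 ± 0.23 (SE, n = 2, limma adjusted p = 0.029), and its arrays, 402 and 240, were the most uneven pair of the gene. Without the first ex2/flu array the difference was 0.56 (limma adjusted p = 0.251), and without the second the call was kept (limma adjusted p = 0.00374). This call was also lost without the first wild-type array (limma adjusted p = 0.0773), without the second (0.232), without the filter (0.0679) and without the intensity trend (0.0846). RXF26 had a limma adjusted p of 0.00572 with both genotypes under the level, so no difference could be measured. That call was lost without the second ex2/flu array (limma adjusted p = 0.0646) and with only the arrays compared (0.159), in a range from 0.00025. AT5G33370 differed by 0.39 (95% interval -0.09 to 0.86, limma adjusted p = 0.427). Over all probe sets the 688 calls in ex2/flu (4.77%) fell to 444 without the first wild-type array, to 423 without the second, and to 450 without the second ex2/flu array.

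The poly-A control transcripts, which are added to the RNA before labelling, were low on 4 arrays and higher on 6, which parts the arrays of wild type, flu, ex1/flu and ex2/flu into 1 and 1. For AT5G33370 the log2 difference of ex1/flu from wild type was 1.18 between the single arrays with low controls and 0.22 between those with higher ones. In ex2/flu it was 0.86 and -0.08. These values follow the gap between the wild-type signals of 192 and 319. With the control level as a block the differences were again 0.70 in ex1/flu (limma adjusted p = 0.146) and 0.39 in ex2/flu (0.373). Such a block cannot move these differences, because each of these genotypes has 1 array at either control level.

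None of the 4 arrays of ex1/flu and ex2/flu had served to pick the genes, and wild type does not enter the comparison between these lines. All 5 genes had both ex1/flu arrays above both ex2/flu arrays, which held for 16.9% of the tested probe sets. RXF26 was under the level on both ex2/flu arrays and passed the filter through the genotypes in which it was high. Its place in this count is therefore given without weight. AT3G09540 was the 1 of 5 called higher in ex1/flu, against 0.097% of the probe sets, and 0 of 5 were called lower, against 1.83%. AT3G09540 was 2.04-fold higher in ex1/flu, a log2 difference of 1.03 (95% interval 0.53 to 1.53, limma adjusted p = 0.0289). This call rested on single arrays. The difference was 0.87 without the first ex1/flu array (limma adjusted p = 0.211) and 0.66 without the second ex2/flu array (0.384), and it was 1.24 and 0.82 between the arrays with low and with higher poly-A controls. It was also lost without the filter (limma adjusted p = 0.0759), without the intensity trend (0.107) and with only these 4 arrays (0.116), over a range from 0.00541. Without the second ex2/flu array the number of probe sets called between the lines fell from 278 (1.93%) to 185.

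For the other 4 genes the difference between ex1/flu and ex2/flu did not pass the test. It was 0.72 (95% interval 0.28 to 1.16, limma adjusted p = 0.13) for AT2G20870 and 0.38 (95% interval 0.02 to 0.74, limma adjusted p = 0.599) for AT3G28500. It was 0.31 (95% interval -0.16 to 0.78, limma adjusted p = 0.899) for AT5G33370 and not measurable as a fold for RXF26 (limma adjusted p = 0.958). STZ was lower in ex1/flu than in ex2/flu by 1.65 ± 0.15 (SE, n = 2, limma log2 difference -1.65, adjusted p = 2.3e-05). The sign for STZ was thus opposite to that for the 4 brighter genes.

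Other members of the gene families were compared with the 5 genes in the same lines. The ribosomal stalk is built of P0, P1, P2 and, in plants, P3 proteins, and 12 of 13 listed stalk genes were tested. Against wild type 1.58% of all tested probe sets were called in ex1/flu and 4.77% in ex2/flu. Near those shares, the 11 others, P0, P1, P2 and P3 genes alike, gave 0 calls in either line. Their log2 differences ran from -0.01 to 0.41 in ex1/flu (median 0.24) and from -0.16 to 0.42 in ex2/flu (median 0.15), against medians of all probe sets of -0.02 and -0.05. The P2 gene AT2G27720 differed by 0.32 in ex1/flu (limma adjusted p = 0.389) and the P2 gene AT2G27710 by -0.01 (limma adjusted p = 0.99). AT3G28500, at 1.79 and 1.42, lay above the whole range of the other stalk genes in both lines.

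Pectate lyases loosen the wall by cutting pectin, and 15 of 26 listed genes were tested. The 14 others gave 0 calls higher and 0 lower against wild type in either line, and 0 between the lines. These counts are near the shares of all tested probe sets, 1.58% in ex1/flu, 4.77% in ex2/flu and 1.93% between the lines. AT5G55720 and AT4G13710 were under the level in 1 or more of the genotypes compared. The log2 differences of the 14 from wild type ran from -0.27 to 0.73 in ex1/flu (median 0.01) and from -0.49 to 0.73 in ex2/flu (median -0.06). Between ex1/flu and ex2/flu they ran from -0.18 to 0.29, and AT3G09540, at 1.03, lay outside that range. Its difference of 0.93 in ex2/flu was above the range of the others by a smaller margin than in ex1/flu.

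GDSL lipases form a large family of esterases, and 12 of 49 listed genes were tested. Among the 10 others, 0 were called higher in ex1/flu or ex2/flu, against 0.72% and 2.75% of all tested probe sets. In ex1/flu 1 of the 10 was called lower, against 0.859% of all tested probe sets, and in ex2/flu 2 of the 10, against 2.02%. AT3G14220 fell in both lines, by 0.98 in ex1/flu (limma log2 difference -0.98, adjusted p = 0.00164) and by 0.76 in ex2/flu (-0.76, adjusted p = 0.00431). It was also lower than wild type in flu (limma log2 difference -1.22, adjusted p = 7.76e-05) and in ex1/ex2/flu (-0.96, adjusted p = 0.00276). AT3G16370 fell in ex2/flu by 0.70 (limma log2 difference -0.70, adjusted p = 0.00378) and differed by -0.47 in ex1/flu (limma adjusted p = 0.12). In flu it was lower by a difference of -0.86 (limma adjusted p = 0.000997), and in ex1/ex2/flu it differed by -0.49 (0.106). Both genes are on the chromosome of FLU, where by locus number AT3G14220 lies close to FLU and AT3G16370 farther off. Whether Landsberg sequence remains at either gene was not tested. The 10 others had medians of -0.10 and -0.09 in the 2 lines, and AT1G54020, at 0.61 in ex1/flu (limma adjusted p = 0.422) and 0.45 in ex2/flu (0.464), lay beside AT5G33370. RXF26 could not be placed among them because it was dim.

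**Figure D3:**
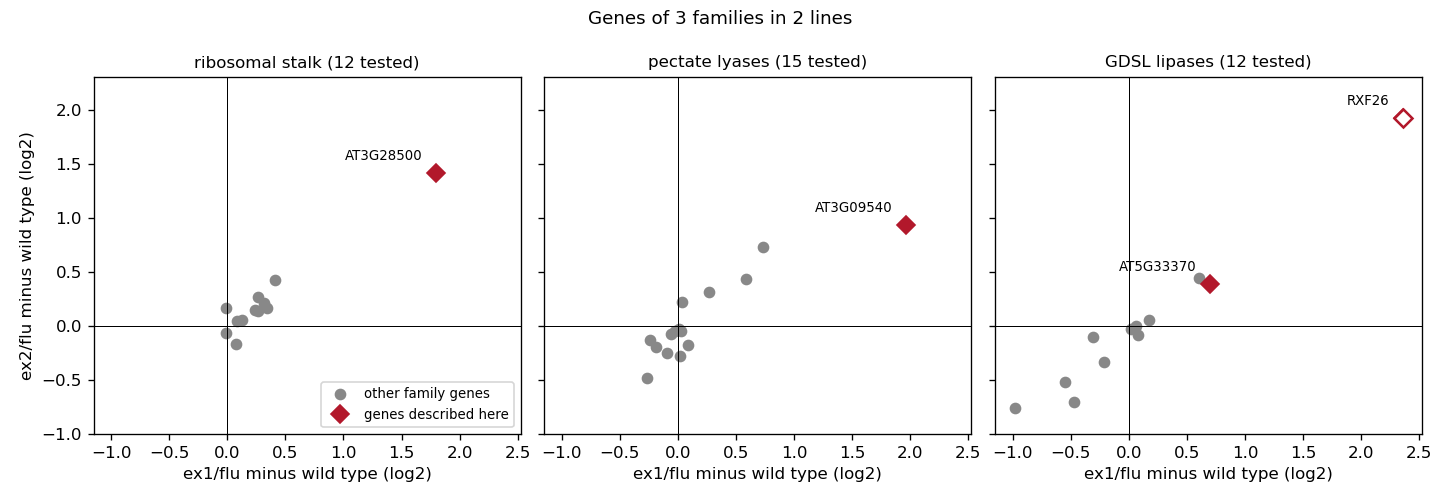
Log2 difference from wild type in ex1/flu (horizontal) against ex2/flu (vertical) for tested genes of the ribosomal stalk, the pectate lyases and the GDSL lipases, 1 point per gene, with the chosen genes as named diamonds (open for RXF26, which was dim). AT3G28500 and AT3G09540 lie above and to the right of all other genes of their families, and AT5G33370 lies beside another GDSL lipase gene.

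Further lists could be read only in part. Of 44 cuticle genes 3 had a probe set of their own and 2 were tested, AT5G33370 and WSD1, a wax ester synthase. WSD1 was under the level in wild type and did not pass the test in ex1/flu (limma adjusted p = 0.533) or ex2/flu (0.532). Of 13 structural wall proteins AT2G20870 itself was the single one with a probe set.

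Markers of other cell types and organs were checked, because cutin and wall genes are strongly used in the epidermis and in young growing organs. Of 11 epidermis markers 2 were measured, and the stomatal lineage genes SPCH and FAMA did not pass the test in any flu line against wild type or between ex1/flu and ex2/flu. Of 8 root markers 1 had a probe set, EXP7, at 9.47 to 39.1 and so under the level on all arrays. The 11 flower and 6 vascular markers had 0 probe sets of their own. Of 8 mesophyll markers 2 were measured, and RCA, the activase of Rubisco, had signals of 15260 to 21041, as leaf tissue has. RCA was not called against wild type in any flu line, and its log2 differences ran from -0.04 (ex2/flu) to 0.20 (flu). The ex1/flu arrays differed from those of ex2/flu by 0.10 for RCA (limma adjusted p = 0.985). The 2 mesophyll markers thus did not move alike. LHCB4.2, a light-harvesting protein of photosystem II, was lower in ex1/flu than in ex2/flu, with a log2 difference of -1.18 (limma adjusted p = 4.45e-05). Against wild type it was also lower in flu, by a difference of -1.02 (limma adjusted p = 4.51e-05), in ex1/flu, by -1.16 (3.82e-05), and in ex1/ex2/flu, by -1.07 (0.000122), and it differed by 0.02 in ex2/flu (0.954). The part of cell composition in the differences of the 5 genes was not tested.

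The choice of the genes makes their patterns alike, since it used 6 of the 10 arrays. Over the 10 arrays the Pearson correlations of log2 signals between pairs of the 5 lay between 0.74 and 0.96, all genes being read from the same arrays. AT5G33370 had the lowest ones, 0.74 to 0.86. Among 7785 other tested probe sets of a single locus, AT3G28500 was the nearest in pattern to AT2G20870 (r = 0.96), followed by RXF26 (0.95) and the plastid-encoded ribosomal gene rps19 (0.95). AT3G28500 had as its nearest AT2G20870, RXF26 (r = 0.94) and psbZ (0.92), a plastid-encoded photosystem II gene. AT3G09540 had AT3G57160 (r = 0.90), RXF26 (0.90) and AT2G20870 (0.90), and RXF26 had AT3G57160 (0.98). AT3G57160 moved less than these genes, with a log2 difference from wild type of 0.65 in ex1/flu (limma adjusted p = 0.223). RXF26 exceeded the level on 3 of the 10 arrays, so its correlations rest largely on dim signals. AT5G33370 stood apart, with AT5G56910 (r = 0.95), AT3G02640 (0.94) and AT1G77060 (0.91), and AT5G56910 differed from wild type by 0.27 in ex1/flu (limma adjusted p = 0.595).

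The position of the genes on the chromosomes was read as gene order in the RefSeq annotation of assembly TAIR10.1. AT3G09540 lies on chromosome 3, as does FLU, with 623 loci between them. AT3G28500 lies on the other side of FLU with 2020 loci between, and the other 3 genes are on chromosomes 1, 2 and 5. The nearest tested genes on either side of AT3G09540, AT3G09500 and AT3G09570, differed from wild type by 0.12 and -0.28 in ex1/flu (limma adjusted p = 0.824 and 0.663). They also did not pass the test in ex2/flu or between the lines.

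Between AT3G09540 and FLU 167 probe sets were tested. In ex1/flu against wild type 1 was called higher and 3 lower, against 0.72% and 0.859% of all tested probe sets. In that line 0 had a larger difference than the 1.96 of AT3G09540. In ex2/flu 5 were called higher and 1 lower, against 2.75% and 2.02%, and 3 had a larger difference than AT3G09540. Between ex1/flu and ex2/flu 1 was called higher, AT3G12610 at 0.74, and 6 were called lower, against 0.097% and 1.83%. Between these lines 1 had a larger difference than AT3G09540. The median log2 difference of the 167 was -0.05 in ex1/flu and -0.03 in ex2/flu, near the medians of all probe sets. The probe sets called in ex1/flu all lay between ranks 42 and 60, counted from AT3G09540. They were AT3G10860 (-0.90), AT3G11210 (1.00), AT3G11230 (-0.85) and AT3G11500 (-1.40). In ex2/flu they differed from wild type by 0.10, 0.16, 0.12 and 0.13 and were not called. Whether Landsberg sequence remains at AT3G09540 was not tested.

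**Figure D4:**
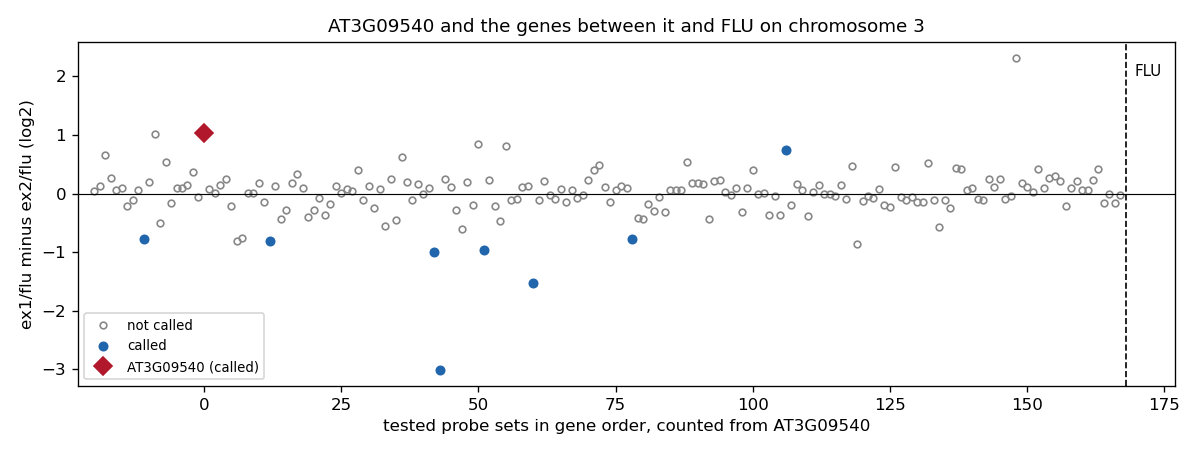
Log2 difference between ex1/flu and ex2/flu (vertical axis) of tested probe sets in gene order along chromosome 3, from 20 before AT3G09540 up to FLU (horizontal axis: rank, not distance; filled points passed the test). AT3G09540, at 1.03, and AT3G12610, at 0.74, are the filled points above 0, and the open point above 2 is AT3G13610, at 2.32, which did not pass. Against wild type AT3G13610 differed by -2.36 in ex1/flu, which did not pass the test, and by -4.67 in ex2/flu, which did.

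The tested neighbours of the other genes mostly did not pass the test either. For AT2G20870 both neighbours, AT2G20830 and AT2G20920, differed from wild type by -0.08 and -0.07 in ex1/flu (limma adjusted p = 0.914 and 0.91). For AT3G28500, AT3G28480 differed by -0.15 in ex1/flu (limma adjusted p = 0.796). AT3G28510, on the other side with 1 locus between, was lower in ex2/flu than in wild type, by at least 1.54-fold (limma adjusted p = 0.000348), which is opposite in direction to AT3G28500. Beside RXF26, AT1G58420 was higher in ex2/flu by 1.08 (limma adjusted p = 0.021) and differed by 0.10 in ex1/flu (0.935). The tested genes nearest to AT5G33370, AT5G32470 and AT5G34900, are separated from it by 131 and 136 loci and did not pass the test in ex1/flu, ex2/flu or between them.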

How the data were processed

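RNA abundance was measured on 10 single-colour Affymetrix ATH1 arrays, 2 for each of 5 genotypes. The deposited table held a linear signal intensity for 22810 probe sets, made by the authors with GCOS 1.2 and MAS5 per the submitters' processing notes. How arrays were scaled is not given in the sources used here, and detection calls were not used. The number of arrays limits the precision.

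The 64 control probe sets were left out. The other 22746 were kept if 2 or more of the 10 arrays had a signal at or above the array's own 40th percentile (14435, 63.5%). Deposited intensities were log2-transformed without offset. A model with 1 mean per genotype was fitted with limma 3.58.1 under R 4.3.3 (lmFit, contrasts.fit, and eBayes whose prior variance followed an intensity trend), with 5 residual and 10 prior degrees of freedom. Errors are moderated standard errors, and adjusted p-values are Benjamini-Hochberg over all kept probe sets, with calls under 0.05. The samples are biological pools, so p-values measure the spread between pools. With 2 arrays a side, 0.333 is the smallest two-sided p of an exact permutation test. The script was tested on simulated data. For a genotype with both arrays under that percentile, the mean log2 of the percentile stood in for its level and gave a bound. Control probe sets served as a spike-in level. Plots were made in matplotlib 3.10.9 under Python 3.11.15.

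The platform table paired 13513 probe sets with 1 gene and 503 with several, and 8730 were not listed. A total of 13436 matched a locus in the RefSeq table of TAIR10.1, used for names and gene order only. Roles of genes are background knowledge and not from these tables. Sequences and coordinates were not used here.

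The 5 genes and all lists were chosen with earlier results of these data known. The genes named are the 5, tested members of their families and of the cuticle list, cell type markers, the 3 genes most correlated with each, the nearest tested neighbours, STZ and EX1. AT3G12610, AT3G13610, AT3G10860, AT3G11210, AT3G11230 and AT3G11500 were named after their values were seen. The alternatives were quantile normalization, median centring, no filter or a 60th percentile filter, an offset of 50, no intensity trend, a replicate block, spike-in blocks, fitting only the arrays compared, and leaving out each array. The poly-A block and the splits by it were added after seeing the data.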

Additional observations from a re-analysis of the deposited data

Results flagged for a closer look

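The difference from wild type of AT3G09540 was larger in ex1/flu than in ex2/flu. The test of the difference itself gave 1.03 on the log2 scale (SE 0.23, n = 2, limma adjusted p = 0.0289), with means of 9.31 in ex1/flu and 8.28 in ex2/flu. Both ex1/flu arrays were above both ex2/flu arrays. The adjusted p ranged from 0.00541 to 0.384 over the alternatives, and the call was lost under 5 of them.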

How the results depend on the processing

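With 2 arrays per genotype, leaving out 1 array ended several calls, and RXF26 was too dim for its calls to carry weight. AT2G20870, AT3G28500 and AT3G09540 were called higher than wild type in ex1/flu, and AT2G20870 and AT3G28500 in ex2/flu, under every alternative run, and no fitted difference of the 5 genes changed sign under them. The filter, intensity trend and replicate block settings leave the fitted differences unchanged by design, so they could not change a sign. Between single arrays with higher poly-A controls AT5G33370 differed from wild type by -0.08 in ex2/flu, against 0.39 in the fit. Over the alternatives 3 to 4 of the 5 genes were called higher in ex1/flu and 3 to 4 in ex2/flu. RXF26 was not tested with the filter at the 60th percentile, and its fitted difference in ex1/flu was 1.03 with an offset of 50 against 2.36 without. Of all probe sets, 228 were called in ex1/flu against wild type, but 147 without the filter, 151 without the intensity trend and 97 with the hybridization spike-in block. In ex2/flu the count was 688, and 430 with that block. The block set a single wild-type array apart from the other 9, so it amounts to leaving that array out. Leaving out each array in turn gave 97 to 245 calls in ex1/flu, 423 to 881 in ex2/flu and 185 to 277 between ex1/flu and ex2/flu. Between ex1/flu and ex2/flu 1 of the 5 genes was called higher, and 0 in the fits without the trend, without the filter or restricted to these 4 arrays, and 0 to 1 when leaving out each array. Dropping the filter adds dim probe sets to the adjustment, and fitting fewer arrays leaves fewer degrees of freedom. The cause of the other losses was not tested. Arrays of the same number had correlated deviations of -0.08, -0.07 and 0.43 for ex1/flu and ex2/flu against wild type and against each other, from 2 pairs each. In the last of these same-numbered arrays also share the poly-A level, and the design does not say that the numbers pair arrays. With a replicate block 227, 731 and 288 probe sets and 4, 4 and 1 of the 5 genes were called.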

Other observations

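Among the 9 other loci called higher than wild type in ex1/ex2/flu with a mean at or above flu, which were named after their values were seen, AT5G22430 had log2 differences of 1.69 in ex1/ex2/flu, 1.06 in flu, 1.60 in ex1/flu (limma adjusted p = 0.00371) and 0.80 in ex2/flu (0.115). AT3G11210, another locus of chromosome 3 on the stretch that leads from AT3G09540 to FLU, had 0.95, 0.81, 1.00 (limma adjusted p = 0.0243) and 0.16 (0.769). AT2G42540 had a difference of 0.79 in ex1/ex2/flu and of -0.38 in flu, and did not pass the test in ex1/flu or ex2/flu (limma adjusted p = 0.678 and 0.698). The plastid loci ArthCp011 and ArthCp019 (psbZ) had 0.74 and 0.54 in ex1/ex2/flu, and also did not pass it in ex1/flu (limma adjusted p = 0.0856 and 0.153).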
